A study of Homo sapiens with 2 samples.

Results

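The genes described here are those that copy DNA before cell division and those that cut out and replace damaged, mispaired or missing bases. They comprise 49 genes, chosen by the authors' own change calls: each is listed as changed after ezetimibe under at least 1 of 4 KEGG pathways, namely DNA replication, Base excision repair, Nucleotide excision repair and Mismatch repair. The full deposited table lists 2238 distinct changed genes under 327 pathways. The ezetimibe group was 1 culture of SNU-449, an established human hepatocellular carcinoma cell line, given ezetimibe, an inhibitor of intestinal cholesterol uptake, for 24 h. The control group was 1 culture of the same line without the drug. Both were grown with fetal bovine serum, and total RNA was sequenced; the dose was not given in the sources used here. Each gene is marked in the table as up or down, with no read count, level or fold change, so no value per library can be shown, read depth is unknown and no gene can be ranked by the size of its change. With 1 library per group there is no replicate check, and no test of the drug was made. Up was taken as higher after ezetimibe because the name of the comparison puts the ezetimibe library first; the table holds no value that checks it.

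In replication, the MCM helicase opens the double helix, DNA polymerase alpha with its primase lays down short starters, and polymerases delta and epsilon extend them while held to the template by the ring-shaped clamp PCNA. Excision repair borrows the later part of this machinery: a damaged or mispaired stretch is first recognised and cut by proteins specific to each pathway, and the gap is then filled by a polymerase with PCNA and sealed by a ligase. Many replication genes are transcribed in late G1 and S phase under the E2F transcription factors, so their transcripts are abundant in dividing cells and scarce in resting ones.

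Of the 49 genes, 47 were listed as down after ezetimibe and 2 as up. Over all 2238 listed genes, 67.5% were down and 32.5% up. The listed genes made up 25.2% of the authors' background of 8877 pathway genes, with 17.0% down and 8.20% up. Listing after ezetimibe is what selected the 49 genes, so these shares are a description and carry no test. The 2 genes listed as up were POLE3, a small accessory subunit of DNA polymerase epsilon, and GTF2H4, a subunit of the transcription and repair factor TFIIH. In RNA from whole cultures, fewer cells in S phase and less of a transcript per cell cannot be told apart.

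The promoters of several members carry the letters bound by E2F factors, and 9 stretches are shown here because they hold these matches in the helicase, the clamp, a polymerase, a mismatch recognition gene and a glycosylase, beside the replication gene that was listed as up. They are RefSeq promoter sequences on GRCh38.p14, read in the direction of the gene. Capitals mark the E2F site searched for (TTTCCCGC, TTTGGCGC, TTTGCCGC or TTTCGCGC, on either strand); in POLE3, which has no such site, they mark the 7-base form without the first T.
MCM2, chr3:127598383-127598440, plus strand: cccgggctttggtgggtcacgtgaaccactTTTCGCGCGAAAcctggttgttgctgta
MCM3, chr6:52284713-52284776, minus strand: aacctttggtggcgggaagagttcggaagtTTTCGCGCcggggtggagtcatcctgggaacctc
MCM6, chr2:135876492-135876563, minus strand: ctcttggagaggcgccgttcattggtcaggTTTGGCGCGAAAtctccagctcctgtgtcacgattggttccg
MCM7, chr7:100101369-100101436, minus strand: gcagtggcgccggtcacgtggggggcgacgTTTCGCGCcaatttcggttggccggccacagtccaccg
PCNA, chr20:5126644-5126711, minus strand: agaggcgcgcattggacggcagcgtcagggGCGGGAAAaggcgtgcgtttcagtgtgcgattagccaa
POLE, chr12:132687323-132687390, minus strand: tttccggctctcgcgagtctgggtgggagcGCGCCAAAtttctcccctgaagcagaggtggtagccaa
MSH3, chr5:80654515-80654586, plus strand: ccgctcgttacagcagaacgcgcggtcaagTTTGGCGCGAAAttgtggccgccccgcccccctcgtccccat
UNG, chr12:109098079-109098146, plus strand: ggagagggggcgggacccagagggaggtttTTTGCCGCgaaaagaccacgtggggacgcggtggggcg
POLE3, chr9:113410345-113410391, minus strand: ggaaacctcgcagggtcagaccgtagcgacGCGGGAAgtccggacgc

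The core of the replication fork was listed as down almost subunit by subunit. All 6 subunits of the MCM helicase (MCM2 to MCM7), which unwinds the DNA ahead of the fork, were down. All 4 genes of polymerase alpha and primase were down, namely the catalytic subunit POLA1, its partner POLA2 and the primase subunits PRIM1 and PRIM2. PCNA, the clamp that holds polymerases on DNA (ENSG00000132646; chromosome 20, 5114953 to 5126626, minus strand, GENCODE release 29), was down, as were all 5 subunits of the clamp loader, RFC1 to RFC5, which opens and closes it. These 3 assemblies, 16 genes in all, are the role lists in which every gene was listed.

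The 2 polymerases that do most of the copying were only partly listed. Of the 4 subunits of polymerase delta, which makes the lagging strand, the catalytic subunit POLD1 and the clamp-binding subunit POLD3 were down, and POLD2 and POLD4 were not listed. Of the 4 subunits of polymerase epsilon, which makes the leading strand, the catalytic subunit POLE and its partner POLE2 were down, while POLE3 (ENSG00000148229; chromosome 9, 113407235 to 113410672, minus strand) was up. POLE4, with which POLE3 forms a histone-fold pair, was not listed. POLE3 thus stood under DNA replication, Base excision repair and Nucleotide excision repair with the direction opposite to that of its 2 listed polymerase partners. POLE3 overlaps the gene C9orf43 on the opposite strand over 619 bases, and whether the authors counted by strand was not given in the sources used here, so its reads cannot be told apart from those of C9orf43 in that stretch.

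Genes that protect single strands and join the lagging-strand pieces were down where listed. Of the replication protein A genes, whose products coat single-stranded DNA, RPA1 and RPA3 were down, and RPA2, RPA4 and the mitochondrial binding protein SSBP1 were not listed. Of 7 genes that mature Okazaki fragments, 5 were down: the flap nuclease FEN1, the ligase LIG1 (ENSG00000105486; chromosome 19, 48115445 to 48170603, minus strand), the helicase-nuclease DNA2, and the RNase H2 subunits RNASEH2A and RNASEH2B. The third RNase H2 subunit, RNASEH2C, and RNASEH1 were not listed. Over the 7 replication lists together, 28 of 36 genes were listed, 27 of them down and 1 up. A gene that is not listed either missed the authors' criteria, was too low to be called, or lies outside their pathways, and the table does not say which.

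**Figure D1:**
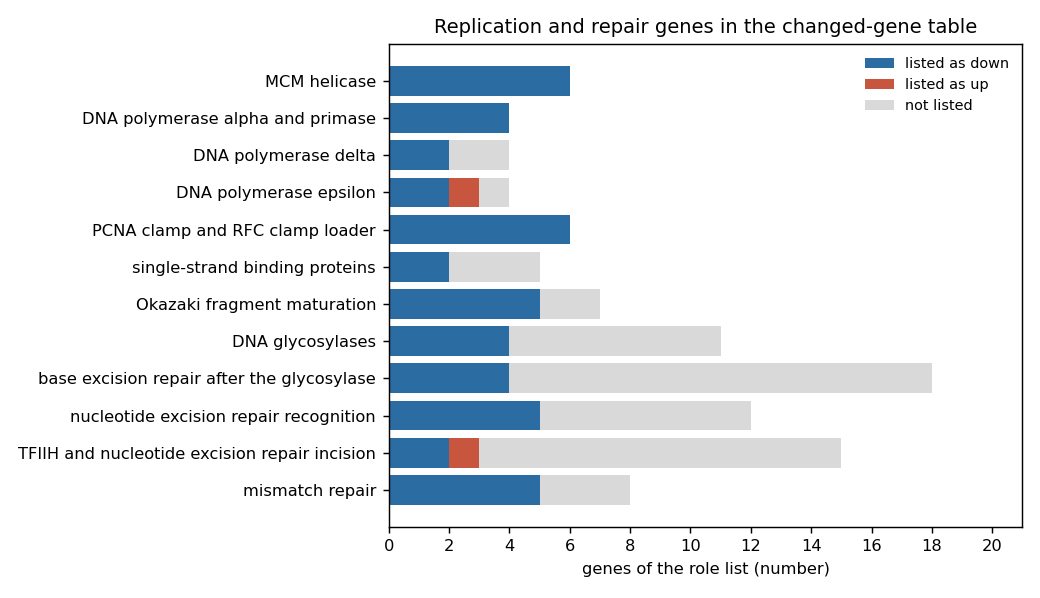
Number of genes (horizontal axis) of each of 12 role lists (vertical axis) that the authors' table lists as down or up after ezetimibe, or does not list. The helicase, the polymerase alpha and primase list and the clamp with its loader are listed in full, while 14 of the 18 genes that act after the glycosylase and 12 of the 15 TFIIH and incision genes are not listed.

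The specific genes of base excision repair were listed less completely. DNA glycosylases start this pathway by removing a damaged base; of 11 in the list, 4 were down and 7 were not listed. The 4 were UNG, which removes uracil, OGG1, which removes oxidised guanine, and NEIL1 and NEIL3, which remove oxidised bases. Among those not listed were the thymine glycosylase TDG, the adenine glycosylase MUTYH and MPG, which removes alkylated bases. Of 18 genes that act after the glycosylase, 4 were down: the scaffold XRCC1, the strand break sensor PARP1, its relative PARP4 and the chromatin protein HMGB1. The main nuclease of the pathway, APEX1, its gap-filling polymerase POLB and the ligase LIG3 were not listed. Together 8 of 29 genes (27.6%) were listed, beside 25.2% of all background genes, a share near the background. HMGB1 is uncertain, since GENCODE names 48 processed copies of it that could share its reads.

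Nucleotide excision repair, which removes bulky lesions such as those made by ultraviolet light, was similar. Of 12 recognition genes, 5 were down and 7 were not listed. Those down were DDB2, which binds ultraviolet damage in chromatin, CUL4B and RBX1, which belong to ubiquitin ligases, and ERCC8 and ERCC6 (CSA and CSB), which act where RNA polymerase stalls. XPC and both RAD23 proteins, which find damage across the genome, were not listed. Of 15 TFIIH and incision genes, GTF2H5 and MNAT1 were down and GTF2H4 (ENSG00000213780; chromosome 6, 30908184 to 30914106, plus strand) was up. The TFIIH helicases ERCC2 and ERCC3, the damage verifier XPA and the nucleases ERCC1, ERCC4 and ERCC5 were not listed. The span of GTF2H4 overlaps that of VARS2 on the same strand over 5865 bases, so counting by strand would not separate reads from that stretch. Same-strand overlaps are also found in members listed as down. FEN1 overlaps FADS2, itself listed as down, over 4265 bases. POLA2 overlaps AP000944.2 over 43662 bases, and XRCC1 overlaps L34079.1 over 25782. POLD1, PRIM1 and RNASEH2A have such overlaps too. In all 8 of 27 genes (29.6%) were listed, 7 down and 1 up, again near the 25.2% of all background genes.

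Mismatch repair corrects errors left by the polymerases. Of 8 genes, 5 were listed and all 5 were down, among them MSH6 and MSH3, which take part in recognising mismatches and small loops, MLH3, and the exonuclease EXO1, which removes the strand with the error. The share listed, 62.5%, stands beside 25.2% of all background genes, with 17.0% down. Listing chose the members, so nothing is read from it. MSH6 (ENSG00000116062; chromosome 2, 47695530 to 47810101, plus strand) overlaps FBXO11 on the opposite strand over 20786 bases. PMS1 and PMS2, which act after recognition, were among the 3 genes not listed.

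Much of what each repair pathway counted was replication machinery. Of the 22 genes listed under Nucleotide excision repair, 14 were also under DNA replication, as were 11 of the 16 under Mismatch repair and 8 of the 16 under Base excision repair. LIG1, PCNA, POLD1 and POLD3 stood under all 4 pathways, 10 genes under 3, FEN1 under DNA replication and Base excision repair, and 34 genes under 1 only. The 10 were POLE, POLE2, POLE3, RFC1 to RFC5, RPA1 and RPA3. Without any gene of DNA replication, 8, 8 and 5 genes were left for base excision, nucleotide excision and mismatch repair. All but 1 of these 21 were down, the exception being GTF2H4. These 21 are also the genes listed among the 64 of the 5 repair lists (32.8%). The 28 members under DNA replication are those listed among the 36 of the 7 replication lists (77.8%). Both shares stand beside 25.2% of all background genes. As listing chose the members, nothing is read from these shares.

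**Figure D2:**
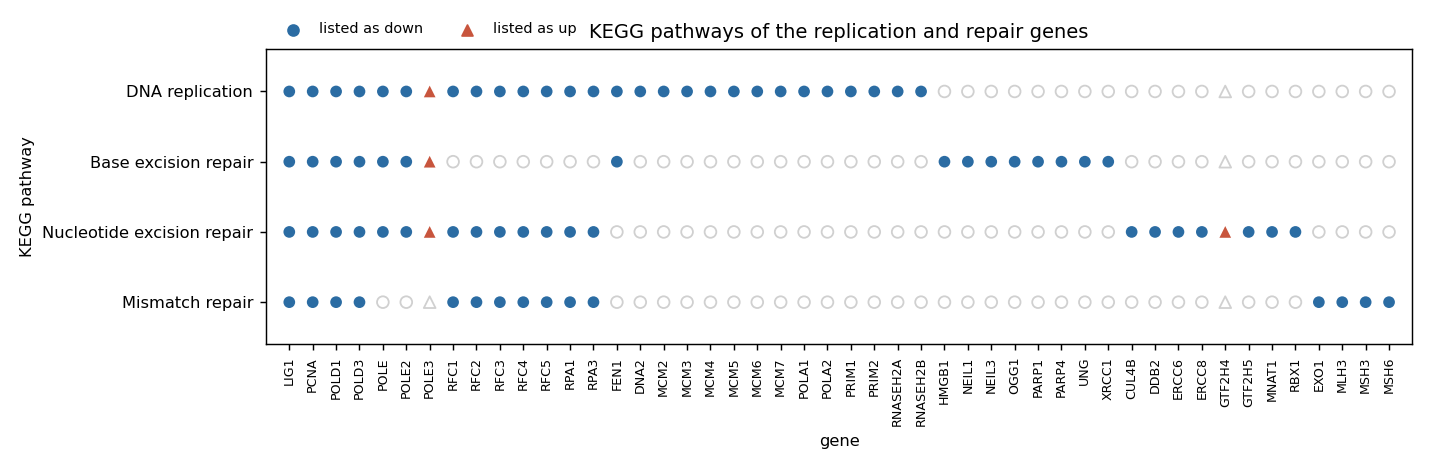
Each column is a member gene, with 1 of the 49 not shown, and each row a KEGG pathway; a filled circle (listed as down) or triangle (listed as up) shows that the gene is listed under that pathway, and an open symbol that it is not. The 15 leftmost genes are under 2 or more pathways, and 14 of the 22 genes under Nucleotide excision repair are also under DNA replication.

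In the authors' deposited table, DNA replication had the highest rich factor of all 327 pathways, at 3.002; this factor divides the fraction of changed genes that fall in a pathway by the fraction of background genes that do. It lists 28 of 37 background genes, with p = 4.23e-07 and q = 6.92e-05 in the authors' deposited table. Mismatch repair came next by rich factor in the authors' deposited table, at 2.64 with 16 of 24 genes and q = 0.00618. Base excision repair had 16 of 33 genes, a rich factor of 1.92 and q = 0.0634 in the authors' deposited table, and Nucleotide excision repair 22 of 58 genes, a rich factor of 1.505 and q = 0.189. Cell cycle, outside the 4 pathways, had 81 of 129 genes, a rich factor of 2.49 and q = 2.93e-10 in the authors' deposited table. It ranked 3 by rich factor and 1 by the authors' p, where DNA replication ranked 2. Of its 81 listed genes, 73 (90.1%) were down, so a high share down was not particular to the 4 pathways. The q-values are the authors', their test was not given in the sources used here, and genes are not replicates of a culture. Since the 4 pathways share genes, their values are not separate results. Mismatch repair was 1 of 5 pathways with no gene listed as up, among the 269 with at least 10 listed genes; the others were GPI-anchor biosynthesis, aldosterone-regulated sodium reabsorption, ABC transporters and fatty acid elongation.

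Outside the 4 pathways, some members reappear in neighbouring parts of the same biology and others in broader maps. Among the broader ones, Pathways in cancer held 5 members of 201 listed genes and Ubiquitin mediated proteolysis 4 of 56. Further cancer, infection and cell death maps held fewer or similar numbers. Under Cell cycle, 8 of the 81 listed genes were members, namely the 6 MCM subunits, PCNA and RBX1. POLD1, POLD3, RPA1 and RPA3 were 4 of the 27 genes listed under Homologous recombination, RPA1 and RPA3 were 2 of the 34 under the Fanconi anemia pathway, and FEN1 was 1 of the 7 under Non-homologous end-joining. DDB2 was the most widely annotated member, under 20 pathways.

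The steps before and around the fork were listed in the same direction with few exceptions. Of 26 genes that license and fire origins, 10 were down and none up: the origin recognition subunits ORC1, ORC2, ORC3, ORC4 and ORC6, the loader CDC6, CDC45, which joins the MCM ring in the active helicase, the kinase CDC7 with its activator DBF4, and TOPBP1. Of 14 genes of deoxynucleotide supply, 10 were down and none up, among them the ribonucleotide reductase subunits RRM1 and RRM2, the kinases DCK and DTYMK, which phosphorylate deoxycytidine and thymidylate, and DUT, which destroys deoxyuridine triphosphate. Of 17 genes of E2F and G1/S control, 12 were down, among them the transcription factor E2F1, the cyclins CCNA2, CCNE1 and CCNE2, the kinase CDK2 and the phosphatase CDC25A, and 1 was up, E2F4. The pocket proteins RBL1 and RBL2, which bind E2F4 to repress transcription, were down. Of 13 replication checkpoint genes, 6 were down, the kinases ATM, ATR, CHEK1, CHEK2 and WEE1 and the ATR partner ATRIP, and 2 were up, among them the cyclin kinase inhibitor CDKN1A. Of 11 genes of translesion synthesis, which copies past damage, 5 were down (POLH, POLI, POLK, REV3L and USP1) and none up. Over these 5 lists 43 genes were down, 3 up and 35 not listed. The share listed was 38.5% for origin licensing and firing, 71.4% for deoxynucleotide supply, 76.5% for E2F and G1/S control, 61.5% for the checkpoint and 45.5% for translesion synthesis, beside 25.2% of all background genes, with 17.0% down and 8.20% up. Genes not listed may lie outside that background. These shares, like those of the role lists, therefore do not have the same base as the 25.2%.

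The longest transcripts of the 49 genes had a median GC content of 45.03% (36.7 to 65.0%) and a median length of 3622 bases (1359 to 11026). The other listed genes had medians of 47.0% and 3864 bases. Among those others, direction went with base composition: genes listed as down had a median GC content of 43.6% and genes listed as up 55.2%. When all listed genes were split into 4 equal classes by GC content, 95.3% of the others were down in the lowest class and 79.3%, 52.5% and 40.5% in the next 3. The members were down in 10 of 10, 18 of 19, 12 of 12 and 7 of 8 cases in the same classes. The 7 members listed as down in the class above 56.1% GC were LIG1 (56.4%), MCM5 (57.0%), MCM7 (57.6%), MCM2 (58.1%), XRCC1 (58.3%), NEIL1 (61.3%) and POLD1 (65.0%), and GTF2H4 (56.6%) was the member listed as up. POLE3, at 46.1%, was the exception in the second class. What part base composition plays in the directions was not tested.

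**Figure D3:**
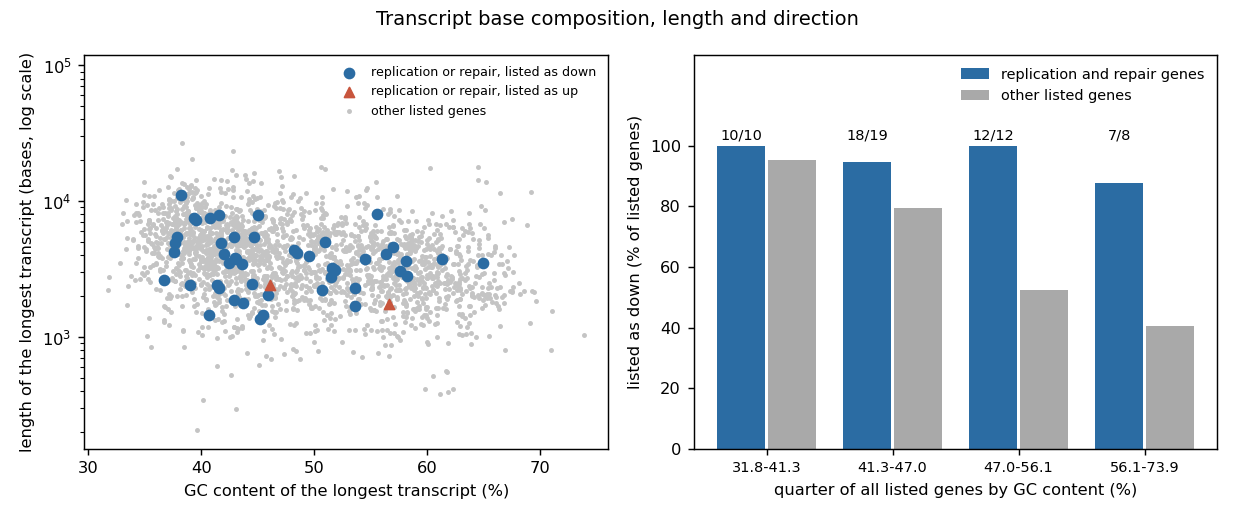
Left, GC content (%) against length (bases, log scale) of the longest transcript for the 49 genes, coloured by direction, over the other listed genes in grey. Right, the share of genes listed as down (%) in 4 classes of all listed genes by GC content: the replication and repair genes are down in 10 of 10, 18 of 19, 12 of 12 and 7 of 8 cases, while the share among other listed genes is 95.3% in the lowest class and 40.5% in the highest.

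Promoter letters were read for the 42 members with an entry in the RefSeq promoter table, in windows from 250 bases before to 50 after each start; the 7 members without one include DNA2, MCM4, MCM5, PARP4, POLD3 and RPA3. A gene counted when any of its windows held the letters on either strand. The E2F site was found in 15 of the 42 genes (35.7%), in 7.52% of 1184 other genes listed as down, in 3.84% of 573 other genes listed as up, and in 3.99% of all 27305 genes in the promoter table. By pathway it was in 11 of 23 genes of DNA replication (47.8%) and in 4 of 19 repair genes outside it (21.1%). Those 15 were all 4 MCM genes with an entry (MCM2, MCM3, MCM6 and MCM7), POLA1, POLA2, POLE, POLE2, PCNA, RFC3, LIG1, MSH3, MSH6, EXO1 and UNG. None of the 5 recognition genes of nucleotide excision repair, the 3 TFIIH genes or the 3 genes after the glycosylase that had an entry held it, but the 7-base form without the first T was in 2 of the 5 and in 2 of the 3 genes after the glycosylase. That form was in 18 of 23 genes of DNA replication (78.3%) and 9 of 19 repair genes outside it (47.4%), beside 26.1% of other genes listed as down, 20.4% of those listed as up and 15.3% of all genes. All 15 genes are listed as down, but so are 40 of the 42 members with an entry, so nothing is read from this. Neither POLE3 nor GTF2H4, the 2 members listed as up, held the site. The windows of DNA replication genes had a median GC content of 66.0%, those of other genes listed as down 64.2%, those of other genes listed as up 65.3% and those of all genes 58.3%. The dinucleotide CG, which every form of the E2F site contains, occurred a median of 31.0 times per window in DNA replication genes, 22.7 times in repair genes outside that pathway, 24.4 times in other genes listed as down, 26.0 times in other genes listed as up and 14 times in all genes. The part of base composition in these shares was not tested. A match shows letters and not binding, and a window without a match says nothing about the factor.

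The 22 matches lay between 187 bases before and 7 bases after the start, with a median of 61 bases before it, as the plot of match positions shows. Both strands matched in MCM2, MCM6 and MSH3, where TTTGGCGCGAAA or TTTCGCGCGAAA reads as an E2F site in each direction; MCM6 held this pair at 2 places, 152 and 90 bases before its start. MCM3 and MCM7 each held 1 match within 10 bases of the start and 1 farther upstream. In 3 matches the letters overlapped another motif searched.

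**Figure D4:**
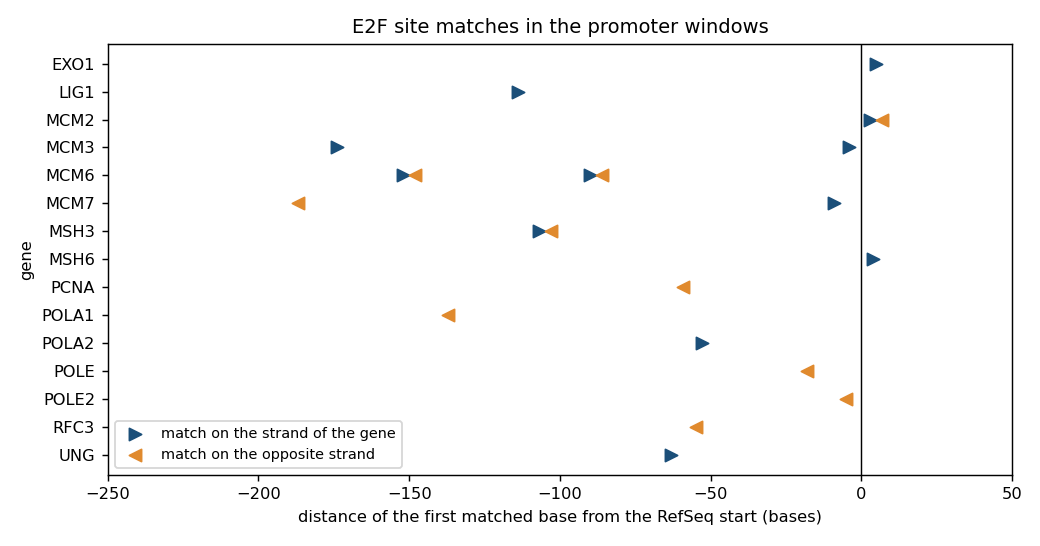
Distance in bases from the RefSeq start (horizontal axis) of each E2F site match in the 15 member genes that hold one (vertical axis); right-pointing symbols are matches on the strand of the gene and left-pointing ones on the opposite strand. The 22 matches lie from -187 to 7 bases, with 4 in MCM6 and 2 each in MCM2, MCM3, MCM7 and MSH3.

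The other 4 motifs were counted in the same way. The CCAAT box (CCAAT) was in 23 of 42 members (54.8%), beside 44.9% of other genes listed as down, 44.5% of those listed as up and 39.7% of all genes. The GC box (GGGCGG) was in 33 (78.6%), beside 75.4%, 77.1% and 48.3%. The TATA box (TATAAA) was in 0 of 42, beside 10.7%, 12.4% and 13.99%. The cell cycle homology region (TTTGAA), a letter set near the start of many genes of mitosis, was in 8 of 42 members (19.0%), beside 19.0% of other genes listed as down, 10.1% of those listed as up and 18.2% of all genes, so the members were near the background. By pathway it was in 1 of 23 DNA replication genes (4.35%) and in 7 of 19 repair genes outside that pathway (36.8%; 26.3% in windows from 150 bases before the start and 21.2% per window).

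**Figure D5:**
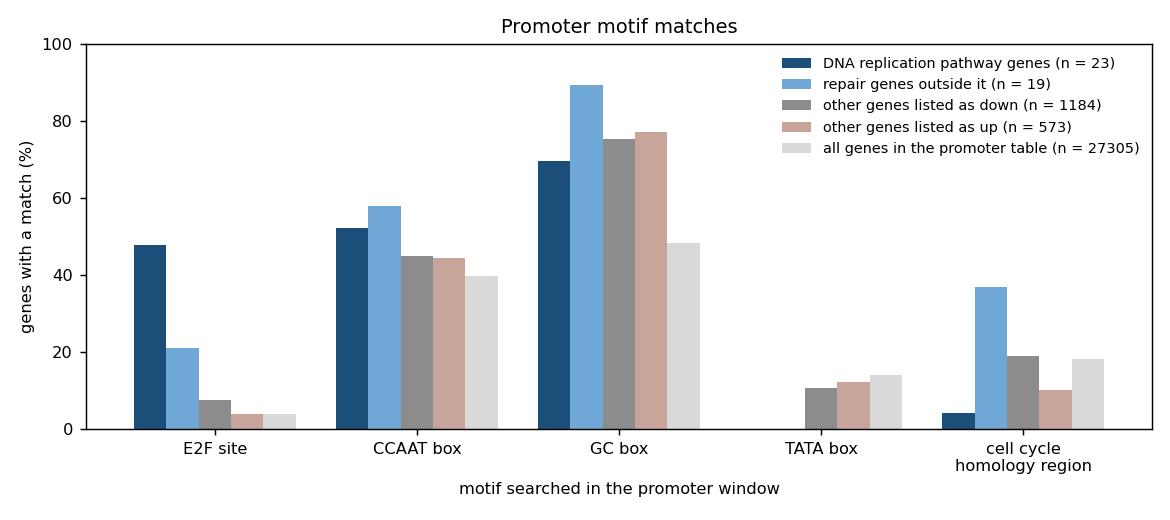
Share of genes (%) whose promoter windows hold each of 5 motifs, for DNA replication pathway genes, repair genes outside that pathway, other genes listed as down, other genes listed as up and all genes in the promoter table. The E2F site is at 47.8% and 21.1% in the replication and repair genes, 7.52% and 3.84% in other genes listed as down and up, and 3.99% in all genes, while the TATA box is in 0 of the 42 members with an entry.

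Several members start back to back with another gene. In GENCODE, 15 of the 49 genes have a protein-coding neighbour on the opposite strand whose 5′ end lies within 1000 bases. Of these neighbours 4 were listed as down, 1 as up and 10 not listed, beside 17.0% of all background genes down and 8.20% up. Only changed genes are named under the pathways, so whether the 10 lie inside the authors' background is not known. The share listed therefore cannot be read. MCM4 and PRKDC, the kinase of end-joining repair, start 2 bases apart and were both down. POLE and the peroxisomal membrane gene PXMP2, whose 5′ ends lie 241 bases apart, were both down, as were PRIM1 and the steroid dehydrogenase HSD17B6 (212 bases). ERCC8 was down and its neighbour NDUFAF2, an assembly factor of respiratory complex I, was up, with starts 56 bases apart. PRIM1 overlaps HSD17B6 over 213 bases, so a shared direction there may include shared reads.

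Of the markers checked against the cell type in the labels, the table lists AFP and CPS1 as down and does not list ALB, APOA1, TTR, KRT8 or KRT18; as it holds no levels, it cannot show whether the line expresses them. In all, 19 members overlap another protein-coding gene, 16 of them on the opposite strand, and 8 have processed copies by name, with 3 for PCNA and PARP4, 2 for PARP1 and UNG, and 1 each for FEN1, RFC3 and RFC5 beside those of HMGB1. All overlaps given here are of whole gene spans, introns included, so they do not show that exons or reads are shared.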

How the data were processed

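RNA of 1 ezetimibe and 1 control culture was sequenced. The authors ran HISAT2 2.0.4 and StringTie 1.3.0, per the submitters' processing notes; genome build, annotation, dispersion setting, threshold and depth were not given in the sources used here. Going by the name of the deposited table, the authors called changed genes with edgeR and tested them for KEGG enrichment. Per the file headers, the deposited table holds numbers of genes, a rich factor (a ratio) made by the authors, and the authors' p-value and q-value per pathway.

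The members are the union of the genes under the 4 pathways, each counted once. Members, role lists and motifs were chosen with earlier results of these data known. All members but 1 are named, and a few genes are not reported here; of each list outside the rule, the first 6 listed genes in alphabetical order were to be named, and the rest of 3 short lists and E2F4, RBL1 and RBL2 were added after their directions were seen. Genes were matched by Ensembl ID to GENCODE release 29 (2237 of 2238 listed genes, 49 of 49 members), giving transcript GC content and length. Promoters came from RefSeq (GRCh38.p14), matched by symbol. The neighbour, overlap and processed-copy searches were added after the data were seen. The planned search for protein motifs was not run. The motif search was checked on planted sites. No test was planned or run, since each group has 1 library. Python 3.11.15, pandas 2.3.3, NumPy 2.4.6, SciPy 1.17.1 and Matplotlib 3.10.9 were used.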

Additional observations from a re-analysis of the deposited data

How the results depend on the processing

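The share of members listed as down, 95.9%, was recomputed under 9 alternatives that removed a member: leaving out each pathway, keeping the 2 pathways with an authors' q below 0.05, keeping genes under 1 pathway, leaving out TFIIH, overlapping or multi-copy genes. The planned limit of 20 pathways per gene removed no member, so it says nothing. It ranged from 94.4 to 100%; the highest value, over 30 genes, came from leaving out members that overlap another protein-coding gene, a choice made after seeing the data, which removes both genes listed as up. The median transcript length was 1557 bases as the mean over all transcripts of a gene, since shorter isoforms then count, in place of 3622, and the median GC content 45.4%. With the 7-base motif the E2F share was 64.3% of members, beside 15.3% of all genes; it was 35.7% beside 2.85% from 150 bases before the start, and 23.4% beside 3.31% per window, an alternative added after seeing the data. Recomputed rich factors matched the authors'. No paired analysis was possible because each group has 1 library. Without counts, depth limits could not be given.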

Other observations

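The 5 lists of genes around the replication fork, which lie outside the 4 pathways, had promoter entries for 40 of their listed genes, and 14 of these (35.0%) held the E2F site, beside 35.7% of the members and 3.99% of all genes in the promoter table. By list it was in 4 of 10 genes of origin licensing and firing, 3 of 8 of deoxynucleotide supply, 5 of 11 of E2F and G1/S control, 2 of 5 of translesion synthesis and 0 of 6 replication checkpoint genes. The lists were chosen with earlier results in view, and no test was made of these shares.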
